A study of Rattus norvegicus with 8 samples.

Results

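Collagen chains of the rat abdominal aorta were described as a family of genes. Members were all rows of the expression table whose symbol reads Col, a number, a and a number, which gave 44 of 18090 genes. They were grouped by textbook class into 11 fibrillar, 6 basement membrane, 6 beaded filament, 9 fibril-associated (FACIT), 2 multiplexin, 3 network and 4 transmembrane chains and 3 others. The study laid filter paper soaked in 10% iron chloride (FeCl3), used as a chemical injury that brings on a thrombus, around the abdominal aorta of wild-type rats for 5 min (4 samples). Its 4 control samples, also wild type, had paper with 0.9% saline for 5 min, and the labels call replicates biologically independent. The comparison asks which transcripts differ between a thrombosed and a control vessel. Neither the age, sex and strain of the rats nor the time from exposure to harvest is given in the sources used here.

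A collagen molecule is a triple helix of 3 alpha chains whose sequence repeats glycine at regular steps. Fibrillar collagens bear the tension of the media and adventitia, type IV collagen forms the sheet under the endothelium and around each smooth muscle cell, and type VI forms beaded filaments that tie cells to fibrils. Collagen in the wall beneath the endothelium is also what platelets bind, through glycoprotein VI and an integrin, when a vessel is injured. The transcript level of a chain says nothing of how much long-lived collagen protein the wall holds.

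Values were FPKM, fragments scaled by gene length and by library total, so that levels of different genes could be compared per length. Library totals, recovered from the FPKM steps, ran from 24304434 to 30283292 fragments. Myh11 measured 191, 280.5, 516 and 562 FPKM in FeCl3 replicates 1 to 4 and 1029.7, 457, 937 and 562 FPKM in saline replicates 1 to 4; this smooth muscle myosin and the other markers of the media were present throughout. Haemoglobin genes made up 35.4% to 64.0% of all FPKM in the FeCl3 libraries and 4.54% to 43.0% in the saline libraries, where saline replicate 4 was the highest control. The 8 smooth muscle markers summed to 3843 to 11036 FPKM after FeCl3 and 5047 to 27287 after saline, and the 8 fibroblast markers found in the table to 371 to 2364 and 35.5 to 1137. Saline replicate 1 stood apart, with the highest smooth muscle sum, the lowest fibroblast sum and an endothelial sum of 7.89 FPKM against 103 to 258 in the other controls. Saline replicate 2 also stood apart, with 6272 FPKM of Ucp1, a brown fat gene, and 199 FPKM of Krt19, an epithelial and mesothelial keratin, where the next libraries had 76.5 and 1.55. The 6 adipocyte markers, Ucp1 among them, summed to 9439, 10386, 420 and 2594 FPKM in FeCl3 replicates 1 to 4. In saline replicates 1 to 4 they summed to 1.80, 14238, 347 and 1634 FPKM, so fat RNA was not particular to saline replicate 2. The part that these mixtures have in the collagen values was not tested. In whole tissue, fewer cells of a type and less RNA per cell cannot be told apart.

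No collagen chain passed the test over all genes, and the fold changes of most chains lay below 0. Of the 44 chains 30 had at least 1 FPKM in at least 4 libraries and were tested with limma on log2(FPKM + 1), and 0 of them had a Benjamini-Hochberg adjusted p under 0.05, as did 0% of the 11921 genes tested (smallest adjusted p = 0.245). At an unadjusted p under 0.05 there were 5 chains, all lower after FeCl3 (16.7% of those tested), beside 12.2% of all genes in that direction; 0 chains were higher, beside 4.42%. limma voom on the recovered fragments also called 0, with 3 chains (10.0%) at an unadjusted p under 0.05 beside 12.5% of all genes. The fold changes of the chains lay mostly below 0: 28 of 30 (93.3%) were negative beside 70.2% of all genes, with a median log2 fold change of -0.92 beside -0.25. The 8 smooth muscle markers were also all negative, with a median of -0.98. Of the 8 fibroblast markers 7 were positive (median 1.04), as were 7 of the 8 endothelial markers (median 0.92). The part of these cell types in the collagen values was not tested. Fold changes are given as log2(FPKM + 1) differences ± their standard error, and they are damped for genes of low FPKM. The value was below -1 for 12 chains (40.0%) beside 4.33% of all genes. That count was 6 with median-of-ratios scaling (1.89% of all genes), 7 without saline replicate 1 (6.85%) and 18 without saline replicate 2 (7.44%).

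The scale of the libraries bears on these values. Rescaled to TPM, in which all libraries have the same sum, 11 chains passed, all lower after FeCl3 (36.7% of those tested), beside 27.0% of all genes called lower. They were Col5a1, Col27a1, Col4a1, Col4a2, Col4a4, Col6a1, Col6a2, Col6a3, Col12a1, Col16a1 and Col15a1, with log2 fold changes of -2.28 (Col16a1) to -0.91 (Col4a4) and adjusted p by limma of 0.0408 to 0.0482. The median log2 fold change was then -1.60 for the chains and -0.90 for all genes. Without saline replicates 1 and 4, the controls with the least fibroblast RNA and the most haemoglobin, the medians were -0.55 and -0.39. Among the 30 tested chains, the FeCl3 values of 4 lay entirely below the saline values (13.3%), beside 8.75% of all genes, and those chains were Col4a1, Col4a2, Col12a1 and Col16a1. No tested chain lay entirely above them, beside 1.06% of all genes. Without saline replicate 2, 13 of the 30 chains lay entirely below the saline values, beside 13.8% of all genes. Without saline replicate 1, 5 chains did, beside 15.5%, and without FeCl3 replicate 4, 4 chains did, beside 16.7%. With saline replicates 1 and 4 both left out, 5 chains lay entirely below, beside 25.3% of all genes. The share of the chains was thus not above that of all genes in every setting.

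**Figure D1:**
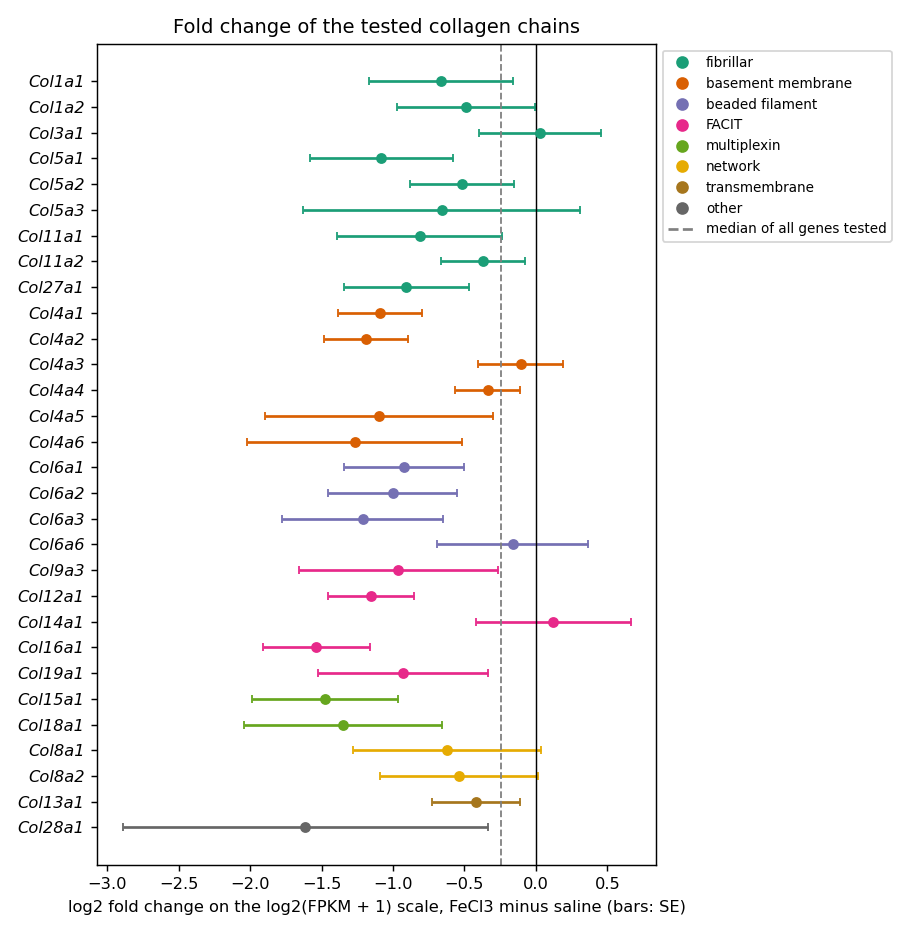
Log2 fold change of the 30 tested chains on the log2(FPKM + 1) scale, FeCl3 minus saline, with SE bars and colours by class; the dashed line is the median of all genes tested at -0.25. All but 2 chains, Col3a1 and Col14a1, lie below 0, and none passed at an adjusted p under 0.05.

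The 3 chains of type I and type III collagen made up 55.6% to 76.9% of the summed collagen FPKM after FeCl3 and 36.4% to 68.7% after saline, and the level of each overlapped between the groups. Col3a1 measured 727, 1831, 797 and 1105 FPKM in FeCl3 replicates 1 to 4 and 1094, 622, 922 and 1722 FPKM in saline replicates 1 to 4, where Col3a1 encodes the type III chain of distensible tissues such as arteries. The highest library was FeCl3 replicate 2 and the lowest saline replicate 2, and the log2 fold change was 0.03 ± 0.43 (adjusted p by limma = 0.976), with a 95% interval of -0.94 to 1.00. Col1a1 measured 245, 657, 229 and 299.8 FPKM in FeCl3 replicates 1 to 4 and 415, 322, 423 and 1240.4 FPKM in saline replicates 1 to 4, and this gene makes the alpha 1 chain that type I collagen holds in 2 copies. Saline replicate 4 and FeCl3 replicate 2 were high and the other 6 libraries lay between 229 and 423 FPKM. The log2 fold change was -0.67 ± 0.50 (adjusted p by limma = 0.503), and it was -0.24 without saline replicate 4. Col1a2 measured 276, 831, 293 and 365 FPKM in FeCl3 replicates 1 to 4 and 567, 305, 506 and 1096 FPKM in saline replicates 1 to 4. It encodes the alpha 2 chain of type I collagen, and the same libraries were high. The log2 fold change of Col1a2 was -0.49 ± 0.48 (adjusted p by limma = 0.614), and it was -0.16 without saline replicate 4.

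The minor fibrillar chains, which join type I fibrils and help set their diameter, had lower means after FeCl3. Col5a1 measured 21.6, 36.9, 56.2 and 62.3 FPKM in FeCl3 replicates 1 to 4 and 136, 33.7, 119.6 and 107 FPKM in saline replicates 1 to 4. FeCl3 replicates 1 and 2 and saline replicate 2 were lowest, so that the groups overlapped, and the log2 fold change was -1.08 ± 0.50 (adjusted p by limma = 0.314). Its partner Col5a2 ran from 44.8 to 66.3 FPKM after FeCl3 and from 34.5 to 112 after saline. Col5a3 measured 36.6, 15.1, 2.98 and 2.71 FPKM in FeCl3 replicates 1 to 4 and 2.10, 14.8, 29.3 and 36.5 FPKM in saline replicates 1 to 4. This remaining type V chain had another pattern than its partners: it was lowest in saline replicate 1 and in FeCl3 replicates 4 and 3 and highest in FeCl3 replicate 1 and saline replicate 4. Col11a1 had a log2 fold change of -0.81 ± 0.58 and Col27a1 of -0.91 ± 0.44 (adjusted p by limma of 0.479 and 0.324), with levels of 1.23 to 11.8 and 1.10 to 9.03 FPKM over the 8 libraries. Col11a2 lay between 0.371 and 2.34 FPKM. Col2a1, the chain of cartilage, was at most 0.106 FPKM, and Col24a1 ran from 0.0673 to 0.184 FPKM after FeCl3 and from 0.260 to 0.490 after saline. The groups of Col24a1 did not overlap, but it did not pass the filter on low values and was not tested.

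**Figure D2:**
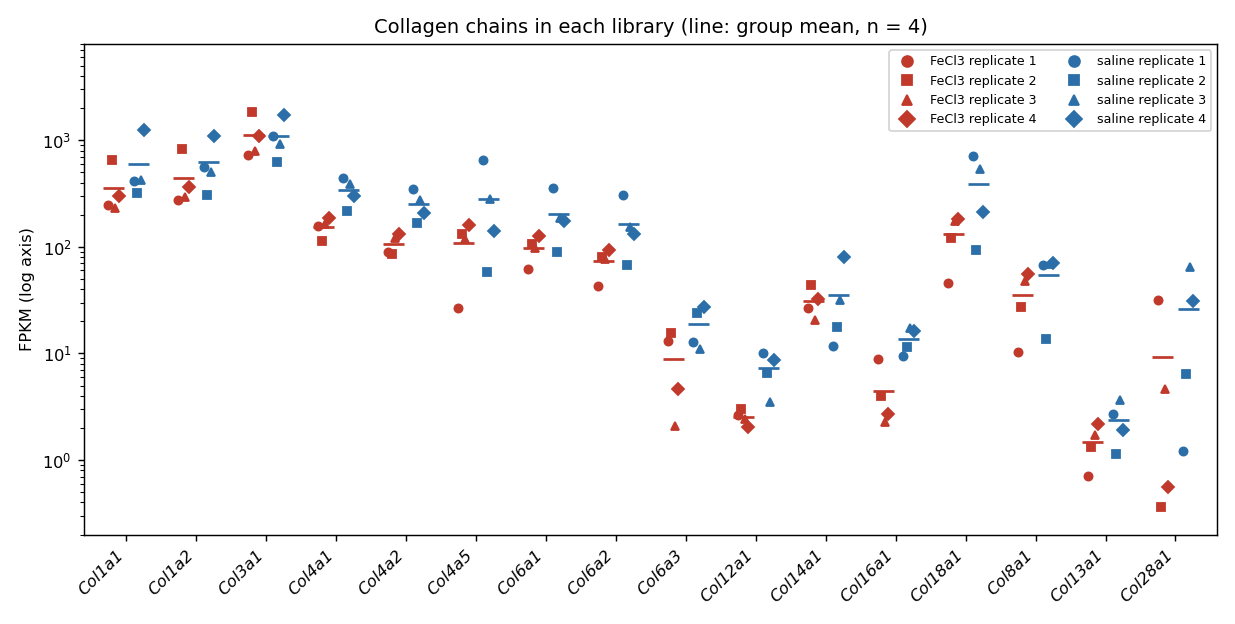
FPKM on a log axis of 16 chains in each library, FeCl3 in red and saline in blue, with a symbol per replicate and a line at each group mean (n = 4). The 4 FeCl3 points lie below all 4 saline points for Col4a1, Col4a2, Col12a1 and Col16a1, and the groups overlap for the other 12 chains.

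The main type IV chains were lower in every FeCl3 library than in every saline library. Col4a1 measured 157, 114, 164 and 185 FPKM in FeCl3 replicates 1 to 4 and 446, 217, 389 and 303 FPKM in saline replicates 1 to 4. Col4a2 measured 89.9, 85.0, 120.2 and 131 FPKM in FeCl3 replicates 1 to 4 and 352, 168, 274 and 206 FPKM in saline replicates 1 to 4. These chains build the basement membrane network around smooth muscle cells and under the endothelium, in molecules with 2 alpha 1 chains and 1 alpha 2 chain. The log2 fold changes were -1.09 ± 0.29 for Col4a1 and -1.19 ± 0.29 for Col4a2, and neither passed over all genes (adjusted p by limma = 0.245 for both; unadjusted p of 0.00514 and 0.00314). Rescaled to TPM both passed, at -1.83 and -1.93 (adjusted p by limma = 0.0408 for both). Saline replicate 2 was the lowest control for both, at 217 and 168 FPKM. Myh11, the myosin of contractile smooth muscle, had a log2 fold change of -0.996 ± 0.44 in the same fit (adjusted p by limma = 0.3005). The median was -0.98 over the 8 smooth muscle markers and 0.92 over the 8 endothelial markers, of which 7 were positive. The part of either cell type in the type IV values was not tested.

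Col4a1 and Col4a2 lie head to head on rat chromosome 16 and are read in opposite directions from starts 77 bases apart. The 76 bases between the starts are shown because both chains that they separate had groups that did not overlap. They lie at chr16:84885521-84885596 in the RefSeq promoter table (build GRCr8), read here on the strand of Col4a1; the deposited values were made on mRatBN7.2, and no coordinate was carried between builds. The 250 bases before the start of Col4a3 (chr9:91323740-91323989, plus strand) are shown for comparison, since Col4a3 and Col4a4 are also divergent, with starts 413 bases apart. Those before Col16a1 (chr5:147672846-147673095, plus strand) are shown because it had the smallest unadjusted p of the chains. Capitals mark the GC box GGGCGG on either strand.
Col4a1 and Col4a2: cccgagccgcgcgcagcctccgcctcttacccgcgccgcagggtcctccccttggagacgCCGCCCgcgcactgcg
Col4a3: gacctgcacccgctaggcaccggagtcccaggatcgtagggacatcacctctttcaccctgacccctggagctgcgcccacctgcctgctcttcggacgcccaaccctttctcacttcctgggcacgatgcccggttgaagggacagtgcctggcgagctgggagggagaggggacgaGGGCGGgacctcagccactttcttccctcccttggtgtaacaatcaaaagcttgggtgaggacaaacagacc
Col16a1: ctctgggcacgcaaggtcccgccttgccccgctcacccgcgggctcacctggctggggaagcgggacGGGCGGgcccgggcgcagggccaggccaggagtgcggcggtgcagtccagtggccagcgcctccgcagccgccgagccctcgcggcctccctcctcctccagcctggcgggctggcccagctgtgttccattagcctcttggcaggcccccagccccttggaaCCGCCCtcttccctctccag
Of these bases 78.9% were G or C between Col4a1 and Col4a2, 62.0% before Col4a3 and 74.8% before Col16a1. GGGCGG occurred once between Col4a1 and Col4a2, once before Col4a3 and in 2 places before Col16a1. Each of the 35 chains with a promoter entry was counted at 1 start, and 19 held GGGCGG in the 250 bases before it. Of all 33465 windows 30.5% held it, but these windows count every distinct start of every gene. The windows of Col4a1 and Col4a2 overlap, so the bases they share were counted for both. CCAAT was found in 11 of the 35 (34.0% of all windows), TATAAA in 4 (12.9%), CAGACA in 4 (17.2%) and TGANTCA in 1 (6.34%), on either strand, each motif counted on its own whether or not it overlapped another. A match is a run of letters and not a shown binding site.

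The other type IV chains behaved differently among themselves. Col4a5 measured 26.8, 131, 118 and 162 FPKM in FeCl3 replicates 1 to 4 and 648, 57.8, 280.2 and 139 FPKM in saline replicates 1 to 4. Saline replicate 1 and saline replicate 3 were high and FeCl3 replicate 1 and saline replicate 2 low, a spread of 24.2-fold over the 8 libraries, and Col4a5 belongs to the networks of smooth muscle basement membranes together with Col4a6. The log2 fold change of Col4a5 was -1.10 ± 0.80 (adjusted p by limma = 0.487), and leaving out FeCl3 replicate 1 gave -0.52 and leaving out saline replicate 1 gave -0.53. Col4a6 measured 1.57, 10.1, 13.0 and 17.7 FPKM in FeCl3 replicates 1 to 4 and 61.2, 7.01, 26.8 and 17.2 FPKM in saline replicates 1 to 4, in the same order of extremes, with a log2 fold change of -1.27 ± 0.75 (adjusted p by limma = 0.405); leaving out FeCl3 replicate 1 gave -0.65 and leaving out saline replicate 1 gave -0.78. Col4a3 and Col4a4, chains best known from the kidney filter, stayed between 1.11 and 3.70 FPKM in all libraries. Their log2 fold changes were -0.11 ± 0.30 and -0.34 ± 0.22 (adjusted p by limma of 0.871 and 0.451).

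Of the beaded filament chains, Col6a1 and Col6a2 kept close to each other and Col6a3 did not. Col6a1 measured 62.1, 106, 97.2 and 126 FPKM in FeCl3 replicates 1 to 4 and 359.8, 90.3, 184 and 176 FPKM in saline replicates 1 to 4. Col6a2 measured 42.9, 80.5, 77.2 and 93.7 FPKM in FeCl3 replicates 1 to 4 and 305, 67.8, 152 and 132 FPKM in saline replicates 1 to 4. In both, saline replicate 1 was highest, FeCl3 replicate 1 lowest, and saline replicate 2 lay below 3 of the 4 FeCl3 libraries. The log2 fold changes were -0.92 ± 0.42 and -1.003 ± 0.45 (adjusted p by limma of 0.310 and 0.307), and they were -0.59 and -0.64 without saline replicate 1. Col6a3 measured 13.0, 15.7, 2.07 and 4.66 FPKM in FeCl3 replicates 1 to 4 and 12.8, 24.0, 10.9 and 27.4 FPKM in saline replicates 1 to 4. This long chain, the partner of both in the type VI molecule, was lowest in FeCl3 replicates 3 and 4, and its log2 fold change was -1.21 ± 0.56 (adjusted p by limma = 0.315). Per length, Col6a3 stood at 0.0268 to 0.354 times Col6a2. Col6a6, an alternative to Col6a3, ran from 0.228 to 2.09 FPKM after FeCl3 and from 0.0104 to 3.34 after saline, with the lowest value in saline replicate 1. Col6a4 and Col6a5 did not reach 1 FPKM in any library.

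The multiplexins, which sit where basement membranes meet the matrix and carry the parent sequences of endostatin-like fragments, varied by 15.5-fold (Col18a1) and 12.1-fold (Col15a1) over the 8 libraries. Col18a1 measured 45.6, 121, 174 and 183 FPKM in FeCl3 replicates 1 to 4 and 708, 93.4, 533 and 214 FPKM in saline replicates 1 to 4. Col15a1 measured 28.2, 116, 80.8 and 86.8 FPKM in FeCl3 replicates 1 to 4 and 342, 106, 260.1 and 152 FPKM in saline replicates 1 to 4. Saline replicates 1 and 3 were highest for both and FeCl3 replicate 1 was lowest, and saline replicate 2 lay among the FeCl3 values. The log2 fold changes were -1.35 ± 0.69 for Col18a1 and -1.47 ± 0.51 for Col15a1 (adjusted p by limma of 0.349 and 0.258; unadjusted p of 0.0846 and 0.0186).

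Fibril-associated collagens, which bind to the surface of fibrils without forming their own, split by chain. Col12a1 measured 2.65, 3.00, 2.42 and 2.05 FPKM in FeCl3 replicates 1 to 4 and 10.2, 6.57, 3.51 and 8.73 FPKM in saline replicates 1 to 4. The FeCl3 libraries differed from each other by less than 1 FPKM and all lay below saline replicate 3, the lowest control. Col16a1 measured 8.83, 3.99, 2.26 and 2.70 FPKM in FeCl3 replicates 1 to 4 and 9.44, 11.6, 17.3 and 16.4 FPKM in saline replicates 1 to 4. Here FeCl3 replicate 1 came close to the lowest control, saline replicate 1, and the other FeCl3 libraries lay further below. The log2 fold changes were -1.15 ± 0.30 and -1.54 ± 0.38 (adjusted p by limma = 0.245 for both; unadjusted p of 0.00436 and 0.00290). Col14a1 measured 26.5, 43.4, 20.6 and 32.5 FPKM in FeCl3 replicates 1 to 4 and 11.6, 17.7, 32.0 and 80.1 FPKM in saline replicates 1 to 4, and was the most abundant chain of the class. Its highest and lowest values were both in controls, and the log2 fold change was 0.12 ± 0.54 (adjusted p by limma = 0.921), with a 95% interval of -1.11 to 1.35. Col19a1 ran from 1.10 to 16.3 FPKM and was highest in saline replicates 1 and 3, as Col18a1 was, with a log2 fold change of -0.93 ± 0.60 (adjusted p by limma = 0.436).

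Among network and transmembrane chains, Col8a1 had 10.3, 27.5, 48.1 and 55.4 FPKM in FeCl3 replicates 1 to 4 and 66.9, 13.8, 68.5 and 70.2 FPKM in saline replicates 1 to 4. Col8a1 is made by smooth muscle and endothelial cells, and its groups overlapped, with the lowest values in FeCl3 replicate 1 and saline replicate 2. The log2 fold change was -0.62 ± 0.66 (adjusted p by limma = 0.638), with -0.14 when FeCl3 replicate 1 was left out and -1.18 when saline replicate 2 was. Col8a2 was lower per length in every library, at 0.290 to 6.26 FPKM. Col13a1 measured 0.707, 1.31, 1.71 and 2.20 FPKM in FeCl3 replicates 1 to 4 and 2.72, 1.15, 3.68 and 1.91 FPKM in saline replicates 1 to 4, with a log2 fold change of -0.42 ± 0.31 (adjusted p by limma = 0.494); Col13a1 is a transmembrane collagen of cell contacts.

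Col28a1, Col9a3, Col17a1 and Col7a1 varied by 182-fold, 102-fold, 362-fold and 198-fold between libraries in a way that did not follow the groups. Their lowest values rested on 36, 6, 3 and 6 fragments, so the folds of the last 3 chains are rough. Col28a1 measured 31.8, 0.359, 4.65 and 0.555 FPKM in FeCl3 replicates 1 to 4 and 1.22, 6.35, 65.2 and 30.8 FPKM in saline replicates 1 to 4. Col28a1 is a collagen of peripheral nerve, and it was highest in saline replicates 3 and 4 and FeCl3 replicate 1 and lowest in FeCl3 replicate 2. Col9a3 had its 3 highest values, 8.42, 6.45 and 4.51 FPKM, in the same libraries. The 4 Schwann cell markers used summed to 172, 11.6, 62.4 and 19.6 FPKM in FeCl3 replicates 1 to 4 and to 32.8, 59.7, 217 and 254 in saline replicates 1 to 4, so that the same 3 libraries were highest and FeCl3 replicate 2 was lowest. The log2 fold changes were -1.61 ± 1.28 for Col28a1 and -0.96 ± 0.70 for Col9a3 (adjusted p by limma of 0.522 and 0.486), and the part of nerve content in them was not tested. For Col28a1 the value was -2.57 without FeCl3 replicate 1, -2.49 without saline replicate 1, -1.04 without FeCl3 replicate 2 and -0.85 without saline replicate 3, and for Col9a3 it was -0.55 without saline replicate 3.

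Col17a1 measured 0.404, 0.485, 0.0859 and 0.304 FPKM in FeCl3 replicates 1 to 4 and 0.0313, 5.71, 0.0158 and 0.350 FPKM in saline replicates 1 to 4. Col7a1 measured 0.315, 0.538, 0.0250 and 0.109 FPKM in FeCl3 replicates 1 to 4 and 0.0568, 4.96, 0.211 and 0.386 FPKM in saline replicates 1 to 4. Col17a1 belongs to the hemidesmosomes of epithelia and Col7a1 to the anchoring fibrils below them, and both exceeded 1 FPKM in saline replicate 2 and in no other library. That is the library with 199 FPKM of Krt19. It also held 7.95 FPKM of Msln, a mesothelial marker, against at most 1.11 in the others. Of the 5 mesothelial markers, Krt19, Msln, Upk3b (3.675 FPKM) and Lrrn4 (0.191 FPKM) were highest there. Wt1 went the other way, with 0.00601 FPKM there and its highest value, 0.189 FPKM, in FeCl3 replicate 1. The part of such cells in both chains was not tested. Neither chain passed the filter on low values, so neither was tested.

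**Figure D3:**
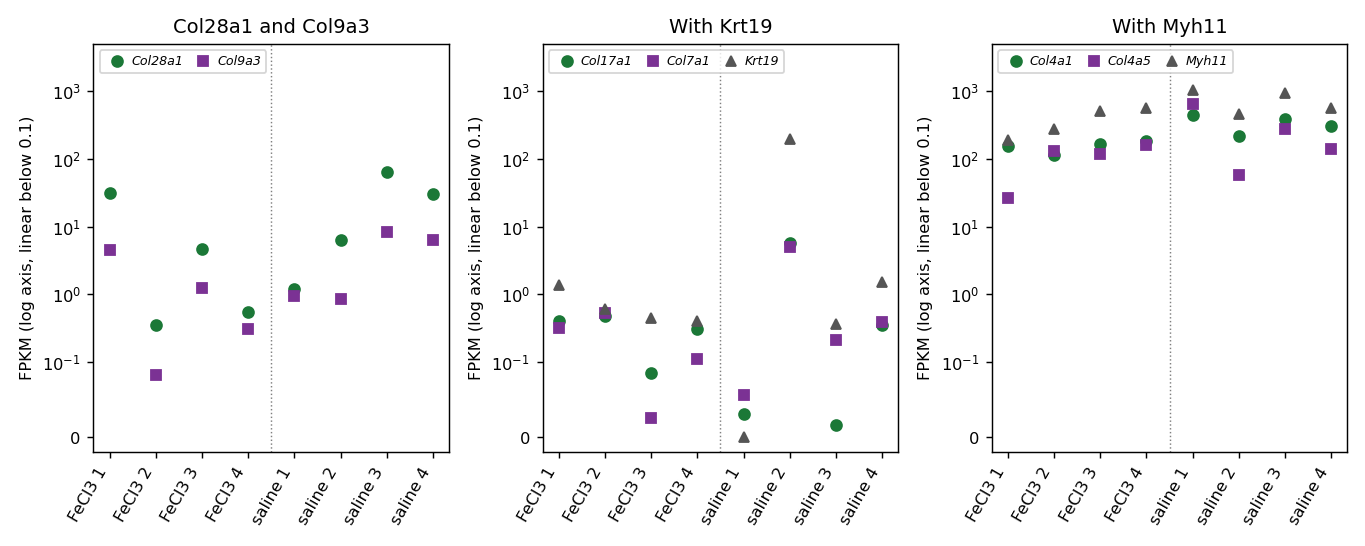
FPKM in each library (log axis, linear below 0.1; the dotted line divides FeCl3 from saline) of Col28a1 and Col9a3, of Col17a1 and Col7a1 beside Krt19, and of Col4a1 and Col4a5 beside Myh11. Col17a1 and Col7a1 exceed 1 FPKM in saline replicate 2 alone, where Krt19 reached 199 FPKM.

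In all, 14 chains did not pass the filter. Of these, 9 stayed below 1 FPKM in every library: Col2a1, Col24a1, Col6a4, Col6a5, Col9a1, Col20a1, Col22a1, Col10a1 and Col26a1. Col9a2, Col17a1 and Col7a1 reached 1 FPKM in 1 library. Just outside the filter were Col23a1 and Col25a1 with 3 libraries at 1 FPKM or more, and just inside were Col11a2, Col6a6 and Col9a3 with 4. Of all members, 7 chains had no fragment in at least 1 library, and for a chain at 0 the limit that a count of 3 fragments sets ran from 0.0117 to 0.0532 FPKM, which covers counting error only. Col10a1, a chain of growth cartilage, had 8 fragments in all libraries together.

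Ratios between chains within a library do not depend on its total or on its haemoglobin. Of 20 pairs fixed, 19 could be computed, and 0 differed between groups after adjustment over the 19 (exact two-sided permutation test of 4 against 4, smallest adjusted p = 0.543). At least 11 of the 19 pairs would have to reach the smallest p of 0.0286 for any to pass, so the adjusted test could not call 1 pair alone. In all, 1 pair had an unadjusted p under 0.05. That pair was Col3a1 to Col1a1. The FPKM of Col3a1 was 2.79 to 3.69 times that of Col1a1 after FeCl3 and 1.39 to 2.63 times after saline, so that the groups did not overlap. The mean log2 ratio was 1.68 ± 0.19 after FeCl3 and 0.99 ± 0.39 in the controls (SD, n = 4 per group), a difference of 0.70. Its exact permutation p was 0.0286, the smallest that 4 against 4 can give, and its adjusted p was 0.543. With each library left out the difference ran from 0.53 to 0.83.

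Several pairs of partner chains varied less as a ratio than either chain alone over the 8 libraries. Col6a1 to Col6a2 ran from 1.18 to 1.45, with an SD of the log2 ratio of 0.09, where each chain alone had an SD of 0.78 and 0.86 on the log2 scale. Col4a1 to Col4a2 ran from 1.27 to 1.74 (SD 0.14 against 0.69 and 0.74), and Col1a1 to Col1a2 from 0.733 to 1.13 (SD 0.22 against 0.81 and 0.74). For type I and type IV molecules the partner present in 2 copies was thus at 0.733 to 1.13 and at 1.27 to 1.74 times the other chain per length. Col4a5 to Col4a6 ran from 8.12 to 17.1 (SD 0.36 against 1.38 and 1.54). Other pairs were loose: Col4a3 to Col4a4 had an SD of 0.72 against 0.56 and 0.45, Col5a3 to Col5a1 one of 2.22 against 1.76 and 0.96, and Col6a3 to Col6a2 one of 1.43 against 1.24 and 0.86. Differences between groups for Col1a1 to Col1a2, Col4a1 to Col4a2 and Col6a1 to Col6a2 were -0.18, 0.10 and 0.08 on the log2 scale, with exact permutation p of 0.343, 0.400 and 0.229. The pairs Col14a1 to Col1a1 and Col12a1 to Col14a1 differed by 0.80 and -1.56 (exact permutation p of 0.0571 and 0.0857; adjusted p = 0.543 for both).

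**Figure D4:**
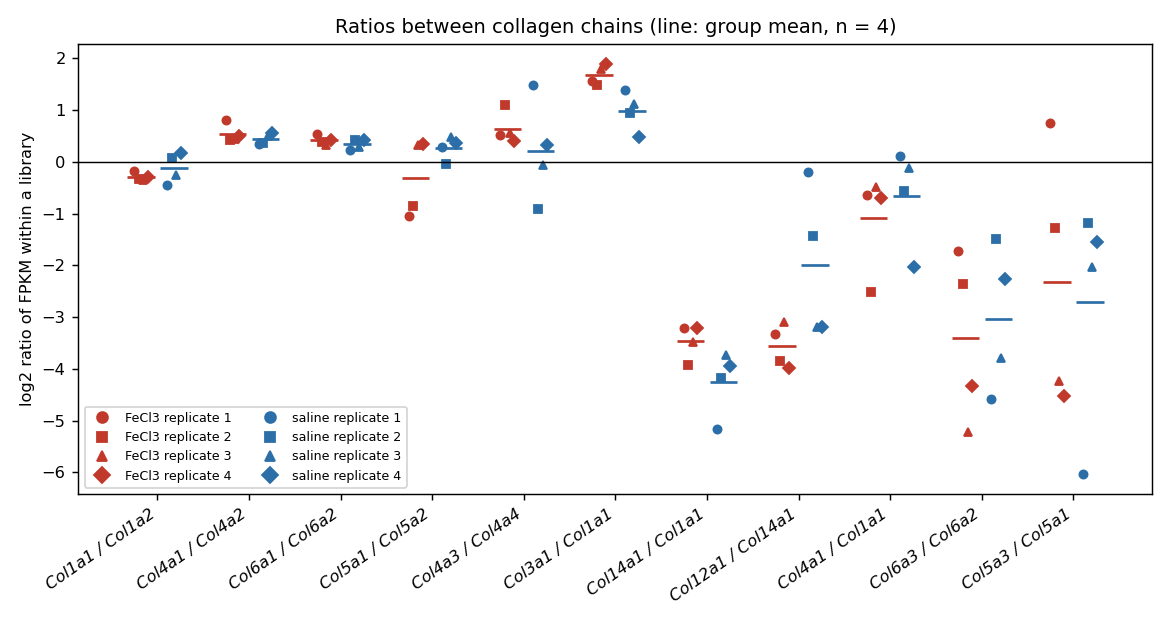
Log2 ratio of FPKM between pairs of chains within each library, FeCl3 in red and saline in blue, with a symbol per replicate and a line at the group mean (n = 4). Col3a1 to Col1a1 is the pair whose groups do not overlap, and Col6a1 to Col6a2 has the narrowest range, 1.18 to 1.45 as a plain ratio.

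As shares of the summed collagen FPKM, fibrillar chains took 60.4% to 79.8% after FeCl3 and 41.1% to 72.8% after saline. Basement membrane chains took 7.98% to 17.7% and 11.4% to 26.5%, multiplexins 3.84% to 10.7% and 6.18% to 18.4%, and beaded filament chains 4.73% to 7.52% and 5.74% to 11.9%. All 4 classes overlapped between the groups. Col3a1 alone took 37.8%, 42.4%, 33.6% and 37.0% in FeCl3 replicates 1 to 4 and 19.2%, 27.6%, 20.7% and 29.1% in saline replicates 1 to 4, so its shares did not overlap. These shares rest on the same values as the ratio to Col1a1 and are given without a test. Summed collagen was 2899.6 ± 1039.8 FPKM with FeCl3 and 4577 ± 1683 in the controls (SD, n = 4 per group), and collagen fragments were 1.01% to 2.21% and 1.22% to 3.11% of all fragments. Saline replicate 2, at 2249 FPKM, lay within the FeCl3 range of 1922.5 to 4314.5.

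**Figure D5:**
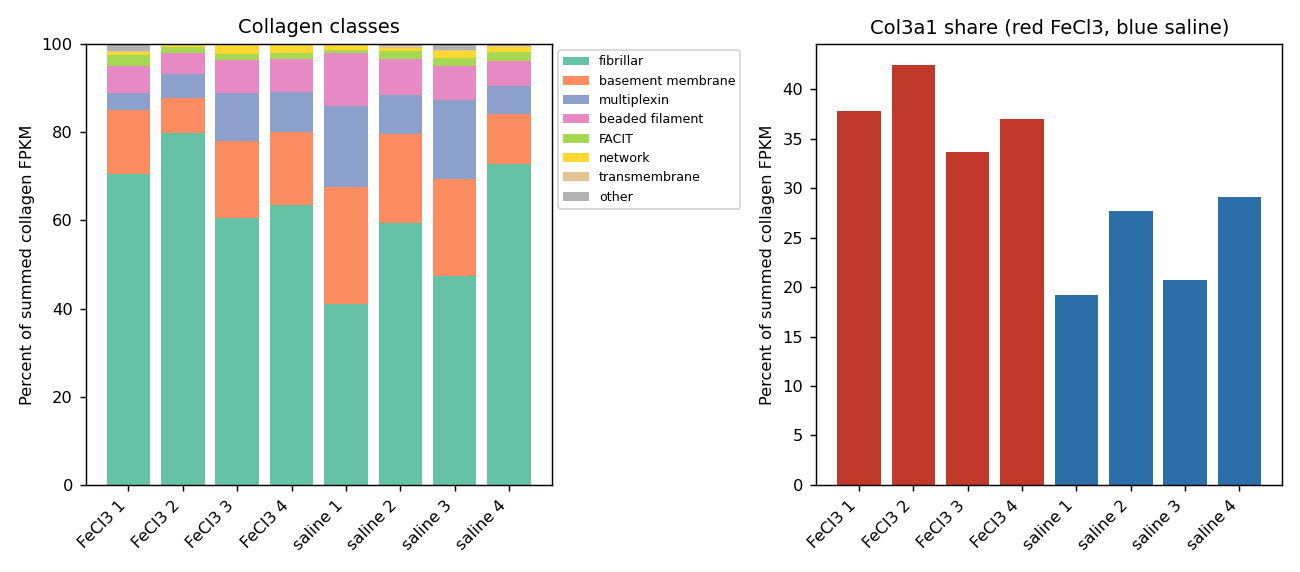
Left, percent of summed collagen FPKM by class in each library; right, percent taken by Col3a1 (FeCl3 red, saline blue). Col3a1 holds 33.6% to 42.4% in the FeCl3 libraries and 19.2% to 29.1% in the saline libraries.

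Genes that fold, cross-link, bind and degrade collagen were taken from 6 lists fixed with the design. No gene of the 6 lists passed over all genes, and most had negative fold changes, as 70.2% of all genes did. Counts at an unadjusted p under 0.05 stand beside 12.2% of all genes lower and 4.42% higher. Groups that did not overlap, with FeCl3 lower, stand beside 8.75% of all genes. In the lists they were those of Plod1, Plod3, Mia3, Itga1, Ddr1 and Smad2. Of the enzymes and chaperones of folding and hydroxylation 17 of 18 tested were negative (median -0.44), 3 of them lower at an unadjusted p under 0.05. Serpinh1, the collagen chaperone HSP47, had a mean of 281 ± 108 FPKM with FeCl3 and of 503 ± 358 in the controls (SD, n = 4 per group). Saline replicate 1 held 1028 FPKM of it, the highest library. Plod1, a lysyl hydroxylase, had a log2 fold change of -0.98 ± 0.25 and did not overlap between groups, with a mean of 12.4 ± 2.29 FPKM with FeCl3 and of 26.0 ± 7.67 in the controls (SD, n = 4 per group). Ppib, a proline isomerase of the collagen-folding complex, stood at -0.13 ± 0.24 on the same scale (adjusted p by limma of 0.245 for Plod1 and 0.789 for Ppib).

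For secretion, propeptide removal and cross-linking 13 of 15 were negative (median -0.40), 3 lower at an unadjusted p under 0.05. Mia3, which loads procollagen into transport carriers, had a log2 fold change of -0.83 ± 0.24, Lox, the lysyl oxidase that cross-links collagen and elastin, -0.20 ± 0.73, and Tgm2, a transglutaminase, -0.40 ± 0.34 (adjusted p by limma of 0.245, 0.901 and 0.561). Among fibril regulators 8 of 13 were negative (median -0.71), 1 lower and 0 higher at an unadjusted p under 0.05. The 5 positive genes were Dcn, Dpt, Lum, Aspn and Ogn, with log2 fold changes of 0.83 (Ogn) to 2.35 (Dcn). Sparc and Bgn, a collagen-binding glycoprotein and a small proteoglycan, had log2 fold changes of -0.44 ± 0.56 and -0.88 ± 0.70, and Prelp, a leucine-rich repeat protein, -0.92 ± 0.29 (adjusted p by limma of 0.696, 0.524 and 0.248).

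Of the collagen receptors 6 of 8 tested were negative (median -0.53), with 2 lower and 1 higher at an unadjusted p under 0.05. Itga1, the alpha 1 integrin of smooth muscle that binds type IV collagen, had a mean of 16.02 ± 2.84 FPKM with FeCl3 and of 30.4 ± 7.2 in the controls (SD, n = 4 per group), with no overlap between the groups. Its log2 fold change was -0.87 ± 0.23, and that of its partner Itgb1 was -0.79 ± 0.41 (adjusted p by limma of 0.245 and 0.354). Gp6 measured 4.75, 5.52, 3.85 and 2.58 FPKM in FeCl3 replicates 1 to 4 and 0.0913, 0.383, 0.193 and 4.47 FPKM in saline replicates 1 to 4. Gp6, glycoprotein VI, is the collagen receptor of platelets, and the 6 platelet markers summed to 980 to 2540.5 FPKM after FeCl3 and 19.8 to 1678 after saline, with the highest control again in replicate 4. Its log2 fold change was 1.51 ± 0.51 (adjusted p by limma = 0.257), and without saline replicate 4, where 1.34% of all genes passed, it was 2.05 (adjusted p by limma = 0.0195); it was named after its values were seen.

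In the degradation list 7 of 13 were negative (median -0.21), with 2 higher at an unadjusted p under 0.05. Mmp8, the collagenase of neutrophils, had a mean of 3.99 ± 1.43 FPKM with FeCl3 and of 1.23 ± 2.08 in the controls (SD, n = 4 per group), with a log2 fold change of 1.47 ± 0.53 (adjusted p by limma = 0.259). Saline replicate 4 held 4.34 FPKM of Mmp8, within the FeCl3 range. Without that library, where 1.34% of all genes passed, the log2 fold change of Mmp8 was 2.02 (adjusted p by limma = 0.0307). The 8 leukocyte markers summed to 346 to 782 FPKM after FeCl3 and 4.12 to 585 after saline. Ctsb, a lysosomal protease, and Timp2, an inhibitor of matrix metalloproteinases, had log2 fold changes of 0.57 ± 0.32 and -0.65 ± 0.36 (adjusted p by limma of 0.387 and 0.379). All 12 genes used of the transforming growth factor axis were negative (median -0.42), and 0 had an unadjusted p under 0.05. Ccn2, Tgfb3 and Tgfbr1, which are a target, a ligand and a receptor of this pathway, had log2 fold changes of -0.11 ± 0.79, -0.81 ± 0.64 and -0.66 ± 0.31 (adjusted p by limma of 0.952, 0.522 and 0.311). Saline replicate 1 held 2192 FPKM of Ccn2, its highest value, and without that library Tgfb3 had a log2 fold change of -0.17.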

How the data were processed

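RNA of 8 abdominal aorta samples was profiled, 4 after FeCl3 and 4 after saline. For each gene and sample the authors deposited an FPKM value. Per the submitters' processing notes, fastp, HISAT2 and HTSeq were used, with build mRatBN7.2, and per the labels' protocols a VAHTS Universal V6 kit was applied to polyA RNA. What version each tool had, which annotation and which strand setting is not given in the sources used here. Columns were matched to samples by title, and the labels put all samples in batch 1. The collagen members, the lists and the tests were chosen with earlier results of these data known.

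Library totals and gene lengths were recovered from the steps of low FPKM values, where 1 fragment is the smallest step. For 18090 of 18090 genes the values were whole fragments within a tolerance of 0.02, and they summed to 98.0% to 99.8% of the recovered totals. On simulated data the recovery found 8 of 8 totals and the exact fragments of 99.6% of 5923 genes. Of genes with over 20 fragments, at most 0.388% had equal fragments in any of 28 pairs of libraries, so no library was a duplicate. Replicates are separate samples, and p-values judge the difference between groups against the variation between samples.

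Genes with at least 1 FPKM in at least 4 libraries entered the main test, a two-sided moderated test of limma 3.58.1 (R 4.3.3) with a mean-variance trend, on log2(FPKM + 1), adjusted by Benjamini-Hochberg over all 11921 genes at a threshold of 0.05; the script was also tested on simulated data. Ratios of FPKM were compared by exact permutation. By rule, values per library were given for the 3 most abundant fibrillar and beaded filament chains, the 2 most abundant of the basement membrane, the most abundant of each other class, and the 4 chains with the smallest unadjusted p; of each pathway list, the 2 most abundant genes and the one with the smallest p were named. Other chains shown in full, Gp6, the positive fibril regulators and the marker genes were added after their values were seen. A few list genes are not reported here and were left out of their lists. Promoter sequences came from RefSeq (GRCr8). Alternatives covered the pseudocount, the filter, scaling to TPM or by median of ratios, limma voom on recovered fragments, and libraries left out.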

Additional observations from a re-analysis of the deposited data

Results flagged for a closer look

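In 4 of 98 groups of 4 values (30 chains and 19 ratios, each in both conditions) 1 library lay far from the other 3, where chance alone flags about 1 in 20. Col11a1 measured 1.23 FPKM in saline replicate 2, against 11.5 to 11.8 in the other controls. Col8a1 measured 13.8 FPKM in saline replicate 2, against 66.9 to 70.2 in the others. The log2 ratio of Col4a1 to Col1a1 was -2.52 in FeCl3 replicate 2, and it was -0.70 to -0.48 in the other FeCl3 libraries. The log2 ratio of Col8a1 to Col4a1 was -3.93 in FeCl3 replicate 1, against -2.05 to -1.74 in the others.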

How the results depend on the processing

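No paired analysis was possible because the sample titles of the groups share fewer than 2 numbers. With FPKM rescaled to TPM 3288 of all genes passed, 11 collagen chains and 23 genes of the pathway lists, and the median log2 fold change of the chains was -1.60, while Col3a1, Col14a1 and Ctsb turned to -0.71, -0.59 and -0.16. Without saline replicate 4, 160 genes passed, 2 of them in the pathway lists, so that with a library left out these counts ran from 0 to 160 and from 0 to 2; the count of chains was 0 throughout, and the chains' median ran from -1.21 to -0.66. With saline replicates 1 and 4 both left out 51 genes passed, and signs turned for Col1a2 (0.012), Col4a3 (0.37), Lox (0.20), Sparc (0.082), Ccn2 (0.79), Tgfb3 (0.0016) and the ratios Col5a3 to Col5a1 (-0.71), Col11a1 to Col11a2 (1.10) and Col4a5 to Col4a1 (0.44).

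A pseudocount of 0.1 turned Col6a6 to 0.13, and adding 1 to both FPKM turned Col8a1 to Col8a2 to -0.0838. Median-of-ratios scaling turned Col4a3 (0.035), Ppib (0.10), Lox (0.031) and Ccn2 (0.13), and voom turned Col4a3 (0.16), Col6a6 (0.92), Ppib (0.10), Lox (0.050) and Ccn2 (0.11). With each library left out in turn, values that changed sign ran from -0.24 to 0.28 for Col3a1, -0.27 to 0.63 for Col14a1, -0.33 to 0.052 for Col4a3, -0.55 to 0.15 for Col6a6, -0.74 to 0.45 for Lox and -0.75 to 0.64 for Ccn2. Ratio differences that did so ran from -0.73 to 1.11 for Col5a3 to Col5a1, -0.86 to 0.51 for Col11a1 to Col11a2, -0.40 to 0.58 for Col4a5 to Col4a1, -0.89 to 0.049 for Col4a1 to Col1a1, -0.70 to 0.17 for Col6a1 to Col1a1, -0.94 to 0.23 for Col6a3 to Col6a2, -0.41 to 1.54 for Col8a1 to Col8a2 and -0.36 to 0.13 for Col15a1 to Col18a1. The cause of the turns was not tested. Values below about 0.1 FPKM rested on few fragments, such as 6 for Col9a3 at 0.0826 FPKM in FeCl3 replicate 2. Col11a2, at 0.716 FPKM in FeCl3 replicate 1, had 172.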
